A study of Mus musculus with 3 samples.

Results

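The genes described here are those of the angiopoietin and Tie system of blood vessels, taken as 6 rows of the count tables by their symbols: the ligand genes Angpt1, Angpt2 and Angptl4, the receptor genes Tek and Tie1, and the receptor phosphatase gene Ptprb. All 6 were present among the 24071 genes of the tables, and all 6 exceeded the detection limit in at least 1 cell class. They were followed through 3 single-cell RNA-seq libraries of mouse retina at P26, 1 library per group. One group is wild type (WT), one is Tspan12 knockout (KO), and the third is the same knockout treated with F4L5.13, an antibody agonist of the FZD4 and LRP5 receptor pair (treated). The antibody went into the peritoneum, at 10 mg/kg for the doses of P6, P9 and P12 and then at 4 mg/kg with 3 days between doses; no injection is described for the other groups. The strain field reads Tspan12tm1.2Hjug for all 3 libraries, the WT library included, and the labels do not say how many mice went into each. Cells were released with papain and collagenase, and beads against CD73 and Annexin V were used to deplete photoreceptors and dying cells, so cell numbers are those of a depleted suspension. Rods nevertheless remained the largest class of the KO and treated libraries, with 4257 and 3753 kept cells. In GENCODE vM21 (mm10) all 6 are protein-coding genes. Angpt1 lies at chr15:42424723-42676977 and Angptl4 at chr17:33773750-33781830, both on the minus strand. Tek lies at chr4:94739289-94874976 on the plus strand, Tie1 at chr4:118471191-118490061 on the minus strand, and Ptprb at chr10:116275523-116389535 on the plus strand. Reads were counted per gene, so no exon or UTR is singled out.

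TIE2, the protein of Tek, is a receptor tyrosine kinase of endothelial cells. Angiopoietin-1, made by cells around vessels, activates it and steadies the vessel wall, whereas angiopoietin-2 is known mostly as a context-dependent antagonist that loosens vessels during remodelling. TIE1 is a related receptor without a strong ligand of its own that modifies TIE2 signalling, and VE-PTP, the protein of Ptprb, removes phosphate from TIE2 and from the VE-cadherin complex. Angiopoietin-like 4 shares the fold of the angiopoietins but does not bind TIE2; it inhibits lipoprotein lipase and is a known target of HIF, PPAR and glucocorticoid signalling. TSPAN12 is the co-receptor through which Norrin reaches FZD4 in retinal endothelial cells.

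After filtering, 5785 WT, 9357 KO and 8215 treated cells were kept, with medians of 14237, 6821 and 7487 reads per cell. Values are reads that appear not to have been collapsed to molecules, so intervals and limits were computed on molecule equivalents, each worth 2.73 reads in WT, 2.76 in KO and 3.16 in treated. A level is given in CPM, the reads of a gene scaled to the usual counts-per-million total of its class and library, with a 95% interval. All intervals cover counting error only, and with 1 library per group no test between groups was possible. A gene with at most 3 molecule equivalents is called at or under the limit. The libraries shared 15 to 31 cell barcodes in pairs, none of them an endothelial cell in both. The targeted gene, Tspan12, was read at 50.6 CPM in WT, 31.8 in KO and 31.5 in treated Müller cells. The reads are 3′ tags, and no source used here says which part of the gene was deleted, so they do not check the label. Depth, the number of rods (219 in WT) and the number of amacrine cells (119 WT, 1149 KO and 139 treated) also differed between the libraries, and their part in the differences below was not tested.

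The 6 genes fell into different cell classes. In WT and treated, Tek, Tie1 and Ptprb reads were concentrated in endothelial cells, as were the Angptl4 reads of WT. Angpt2 was concentrated in horizontal cells, astrocytes, endothelial cells and mural cells. Angpt1 reads of WT and treated lay mostly in a few kinds of bipolar cell, and those of KO mostly in amacrine and bipolar cells. Endothelial cells held 99.0% of the Tek reads, 98.7% of the Tie1 reads, 98.9% of the Ptprb reads and 89.7% of the Angptl4 reads of kept WT cells. Of the 90 treated Angptl4 reads they held 43.3%, with 30% in bipolar and 22.2% in Müller cells. Of the 57 KO Angptl4 reads they held 10.5%, and amacrine cells held 38.6%. Bipolar cells held 77.1% of the Angpt1 reads, and horizontal cells held 41.1% of the Angpt2 reads, of kept WT cells. The class names rest on markers that did not include the 6 genes, and the 6 genes were also kept out of the clustering. The endothelial class, named from 12 markers that all had reads in each library, numbered 118 WT, 2 KO and 39 treated cells. Over all barcodes Tie1 had 1812, 15 and 387 reads, Tek 2656, 46 and 639, and Ptprb 12677, 145 and 4219 in WT, KO and treated. Whether fewer endothelial cells lay in the retina or fewer were recovered cannot be told apart here.

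**Figure D1:**
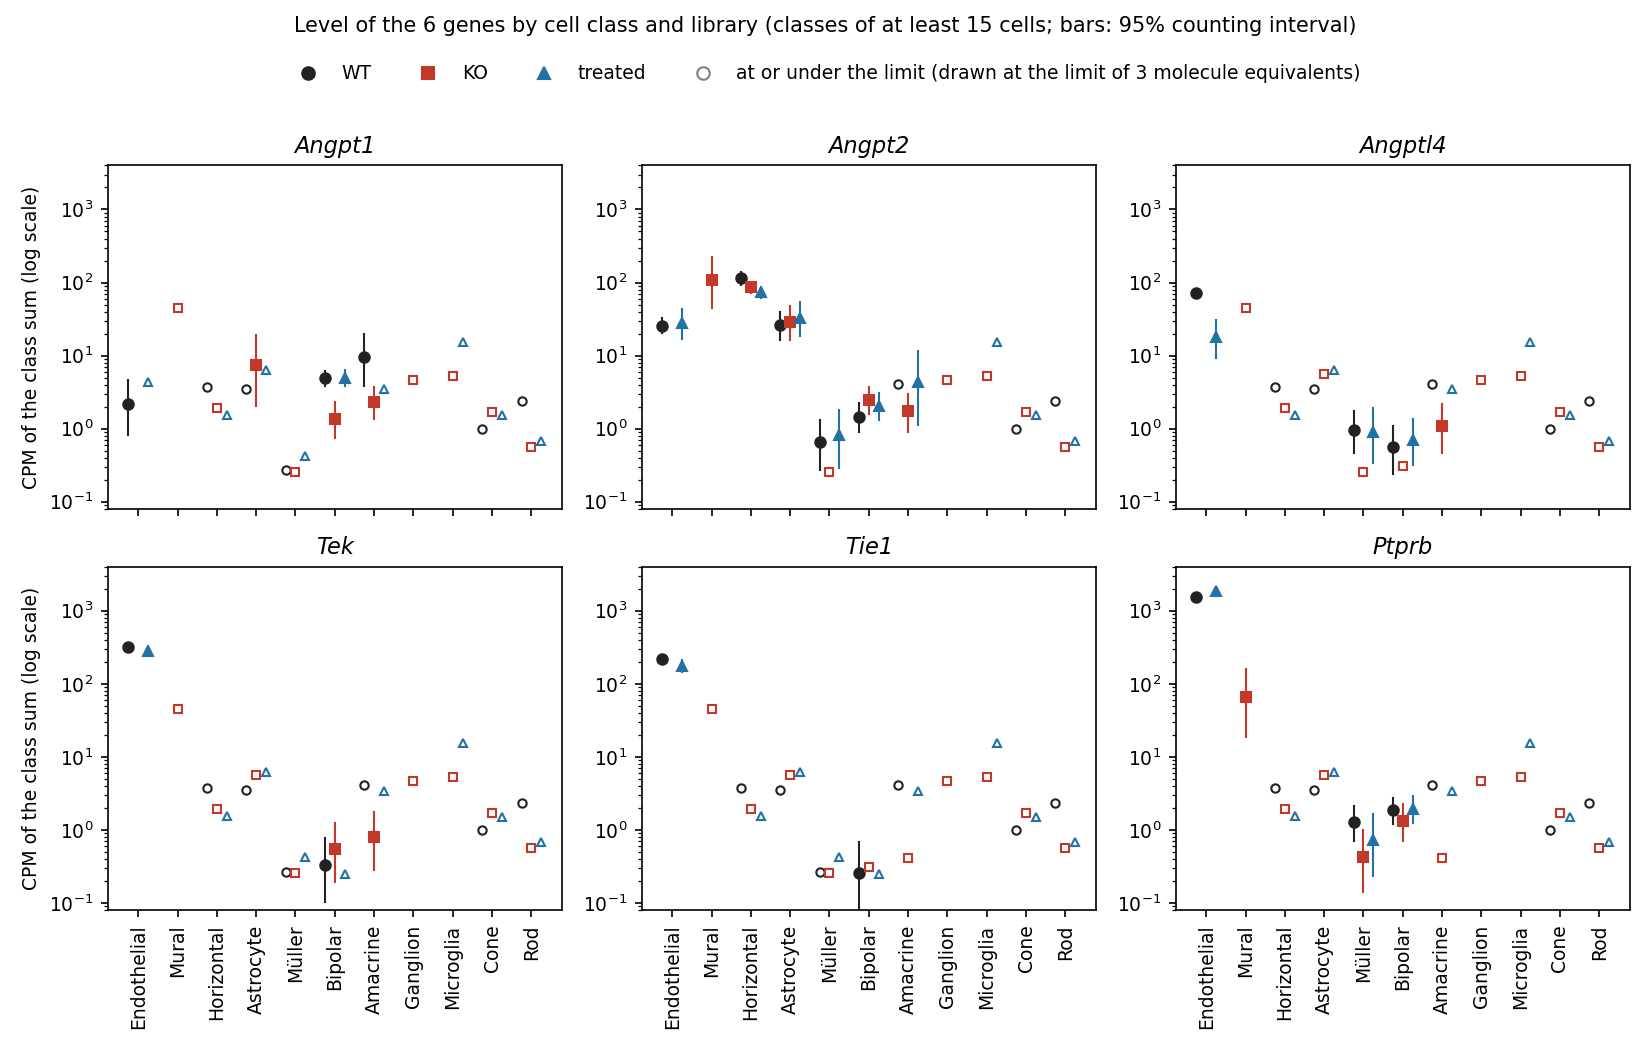
Level of each gene in each cell class (x axis) and library (colour and symbol) as CPM of the class sum on a log y axis, for classes of at least 15 cells in that library. Bars are 95% counting intervals, and open symbols are values at or under the limit of 3 molecule equivalents, drawn at that limit. Tek, Tie1 and Ptprb stand more than 100 CPM high only in endothelial cells, and Angpt2 is highest in horizontal and mural cells.

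Most WT and treated reads of Angpt1, the gene of the activating TIE2 ligand, lay in bipolar cells, the interneurons between photoreceptors and ganglion cells. In KO, bipolar cells held 32.2% of the Angpt1 reads of kept cells and amacrine cells 40.9%. In WT bipolar cells 192 reads gave a level of 4.87 CPM (3.80 to 6.15). In KO, 37 reads gave 1.37 CPM (0.737 to 2.32), and in treated, 191 reads gave 5.00 CPM (3.82 to 6.44). The WT and treated intervals overlap and the KO interval lies below both. The KO to WT ratio was 0.281 (0.144 to 0.508) and the treated to KO ratio 3.66 (2.0 to 7.18), and both met the rule for a call: libraries apart by 2-fold or more, 30 or more molecule equivalents on the higher side, and an interval that stays beyond 1.5-fold. Angpt1 was the only member with enough reads to be called in bipolar cells. By the same rule 0.845% of genes were lower in KO than in WT bipolar cells and 0.933% were higher in treated than in KO. The treated to WT ratio was 1.03 (0.716 to 1.47), a comparison in which 0.463% of genes were called. The KO library is shared by the first pair of comparisons.

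Within the bipolar class the gene was nearly confined to 4 of 18 clusters, the ones with Irx6, a transcription factor known from OFF bipolar cells, among the first 4 leading genes of their first sub-cluster. The 4 clusters were singled out after their values had been seen. They held 191 of 192 WT reads, 36 of 37 KO reads and 181 of 191 treated reads. The cluster with the highest level, led by Gsg1, Irx6 and Esam, stood at 25.7 CPM over 102 WT cells, 9.40 CPM (2 reads) over 23 KO cells and 55.9 CPM over 44 treated cells. The cluster led by Gsg1, Irx6 and Otor had 23.3, 12.3 (3 reads) and 27.4 CPM, and that led by Gsg1, Irx6 and Cabp5 had 18.6, 6.43 and 19.6 CPM, in WT, KO and treated. The 2 and 3 KO reads of the first pair of clusters are under the limit. The KO value was the lowest of the 3 libraries in each of the 4 clusters, although the KO to WT interval includes 1 in 3 of them. In the largest of the 4, led by Gsg1, Scgn and Otor, 227 WT cells had 7.12 CPM, 237 KO cells 2.78 CPM and 213 treated cells 9.50 CPM, a KO to WT ratio of 0.390 (0.146 to 0.943) and a treated to KO ratio of 3.42 (1.49 to 8.83). Over the 4 clusters together WT stood at 13.8 CPM (10.7 to 17.4), KO at 3.68 CPM (1.96 to 6.29) and treated at 14.8 CPM (11.2 to 19.2). The KO library held fewer cells of the 3 clusters with the highest levels (23, 14 and 55, against 102, 56 and 192 in WT). The largest of the 4 contained a sub-cluster led by Neto1 and Ebf1 with 9 WT, 94 KO and 6 treated cells, and Angpt1 had 0, 11 and 6 reads in it. Without this sub-cluster the level over the 4 clusters was 14.1 CPM for the WT library (10.97 to 17.8), 3.88 CPM for the KO library (1.78 to 7.34) and 14.6 CPM for the treated library (11.03 to 19.03), with a KO to WT ratio of 0.275 (0.121 to 0.552) and a treated to KO ratio of 3.78 (1.86 to 8.66).

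The share of cells with an Angpt1 read in the 4 clusters was 14.7% (11.9 to 17.9%) of 577 WT, 4.26% (2.35 to 7.04%) of 329 KO and 18.7% (14.9 to 23.0%) of 380 treated cells. Median depths were 21512, 26376 and 29237.5 reads, so the KO cells were not the shallowest. After each cell was thinned to 5000 reads the shares were 5.72%, 1.52% and 5.60%, with 5 shallower treated cells left out. In the other 14 bipolar clusters 1 of 2132 WT cells, 1 of 1453 KO cells and 5 of 1875 treated cells had a read.

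**Figure D2:**
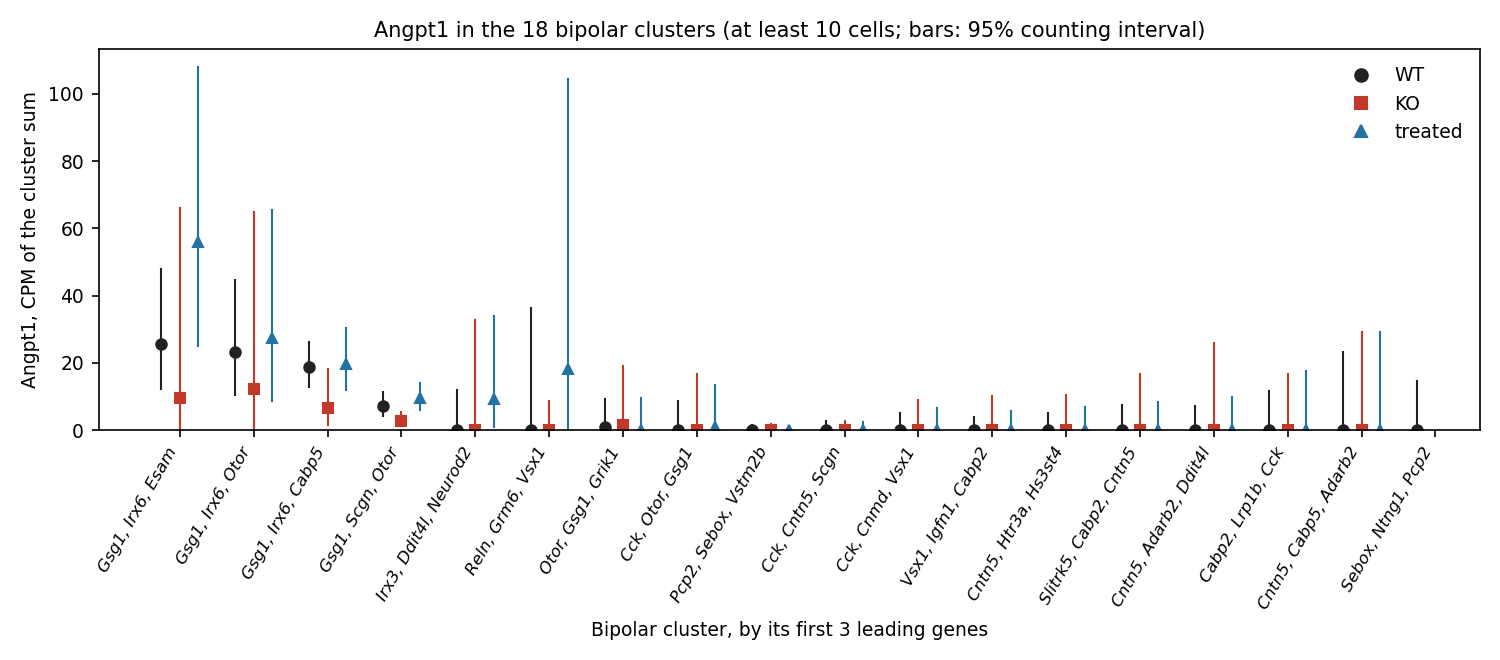
Angpt1 in the 18 bipolar clusters, named on the x axis by their first 3 leading genes and ordered by the level over all libraries, as CPM of the cluster sum on the y axis. Bars are 95% counting intervals, and a cluster with under 10 cells in a library has no point for it. In the 4 clusters at the left the KO point lies below the WT and treated points, and further right nearly all points are at or near 0.

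Outside bipolar cells Angpt1 reads were few in WT and treated. Amacrine cells stood at 9.43 CPM in WT (19 reads, 89.5% of them in 5 cells) and 2.32 CPM in KO (47 reads). Both point values were above that of the whole bipolar class in the same library, but their counting intervals overlap those of bipolar cells. The 5 treated amacrine reads were under the limit. The KO to WT ratio in amacrine cells was 0.246 (0.0967 to 0.703). It became 1.32 without the 5 cells with the most reads in each library. KO astrocytes had 11 Angpt1 reads, or 7.53 CPM. Mural cells, the pericytes and smooth muscle cells that are a known source of angiopoietin-1, numbered 1, 15 and 8, and the 8 reads in 4 KO cells, 43.3 CPM, lie under the limit. In endothelial cells the level was 2.18 CPM (0.817 to 4.67) in WT, and the 7 treated reads were under the limit. No Angpt1 read was found in microglia of any library.

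Angpt2, the gene of the ligand linked to vessel remodelling, was read at a high level in horizontal cells, the lateral interneurons of the outer retina. The 39 WT cells stood at 115 CPM (93.2 to 141), the 78 KO cells at 86.3 CPM (72.3 to 102) and the 93 treated cells at 73.7 CPM (62.1 to 86.8). It was spread over most of them: 94.9% of WT, 82.1% of KO and 83.9% of treated horizontal cells had a read, with medians of 6, 4 and 4 reads per cell. The KO to WT ratio was 0.747 (0.570 to 0.984), the treated to WT ratio 0.638 (0.488 to 0.838) and the treated to KO ratio 0.854 (0.671 to 1.09). None reached a ratio of 2, and 0.978%, 0.786% and 0.971% of genes were called in these comparisons. WT was the highest of the 3 libraries, and its interval overlaps that of KO but not that of treated. Thinned to 5000 reads, 38.5%, 34.6% and 33.3% of horizontal cells kept a read, shares whose intervals overlap. All 11 horizontal cell markers had reads in each library, with a summed level of 19706 to 19841 CPM.

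Astrocytes, the glia that guide the superficial vessels, had Angpt2 at 25.9 CPM (16.2 to 39.2) over 49 WT cells, at 28.7 CPM (16.2 to 47.2) over 26 KO cells and at 33.0 CPM (18.8 to 53.8) over 22 treated cells. The intervals overlap, and the treated to WT ratio was 1.27 (0.623 to 2.55). WT endothelial cells had 25.6 CPM (20.1 to 32.2) and treated ones 27.6 CPM (16.6 to 43.2), with a read in 43.2% and 48.7% of cells, and at a ratio of 1.08 (0.615 to 1.81) a difference was not detectable at this depth. The intervals of astrocytes and of WT and treated endothelial cells overlap and lie below those of horizontal cells. In mural cells 20 reads in 5 of 15 KO cells gave 108 CPM (44.3 to 220), an interval that includes the KO level of horizontal cells. In Müller cells the level was 0.656 CPM in WT, 0.805 CPM in treated and under the limit in KO, and microglia had no read.

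Angpt2 (chr8:18690263-18741562, mm10, minus strand) lies wholly inside Mcph1 on the opposite strand, and no source used here says whether the counting used strand, so reads of the pair may be mixed. Mcph1 itself was counted at 10.0, 7.17 and 13.6 CPM in WT, KO and treated horizontal cells and at 9.16, 8.95 and 10.4 CPM in bipolar cells. Angpt2 in bipolar cells was at 1.45, 2.48 and 2.04 CPM. The part of Mcph1 reads in the Angpt2 values was not tested.

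Angptl4, the gene of the lipase inhibitor, was lower in treated than in WT endothelial cells. The 118 WT cells had 559 reads, or 71.5 CPM (62.1 to 82.0), and the 39 treated cells had 39 reads, or 17.96 CPM (9.38 to 31.1). A read was found in 74.6% (65.7 to 82.1%) of WT and 38.5% (23.4 to 55.4%) of treated cells, and the median cell had 42.9 CPM in WT and 0 in treated. The treated to WT ratio was 0.251 (0.129 to 0.445), that is, 3.98-fold lower in treated (2.25 to 7.76). Angptl4 was the only one of the 5 members with at least 30 molecule equivalents there that was called. In the same comparison 1.6% of 9238 genes were called, 0.812% as lower and 0.79% as higher. The reads were spread over many WT cells, with 17.0% of them in the 5 highest, whereas the 5 highest treated cells held 61.5%, and without 5 cells in each library the ratio was 0.128. After thinning to 5000 reads 23.7% (16.4 to 32.4%) of 118 WT and 10.8% (3.03 to 25.4%) of 37 treated cells had a read, shares whose intervals overlap, and the ratio was 0.456. Beside these shares, 0.151% of 662 WT cones and 0 of 503 treated cones, with median depths of 11998 and 12892 reads, had an Angptl4 read.

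The endothelial class was made of 3 clusters, and the Angptl4 level was lower in treated than in WT cells in each. The first, which also carried mural markers (a summed 10719 CPM in WT and 9450.1 CPM in treated cells), held 32 WT and 28 treated cells with 72.6 CPM and 20.2 CPM, a ratio of 0.278 (0.130 to 0.544). The second carried mural markers too, at a summed 7436.6 CPM in WT and 9449.8 CPM in treated cells. Its Angptl4 level was 74.9 CPM in 51 WT cells and 7.04 CPM (2 reads) in 3 treated cells. The third, with the lowest mural marker level, had 58.8 CPM in 35 WT cells and 12.9 CPM (2 reads) in 8 treated cells, with an interval of the ratio that includes 1. The treated reads of the second cluster, and those of the third, are under the limit. Haemoglobin genes, a sign of red cells, made up 1.12% and 3.09% of the reads of WT and treated cells in the first cluster and 7.47% and 0.000643% in the third. The ratio over the class was 0.247 without the third cluster. Over the whole class mural markers summed to 7060 CPM in WT and 8793 CPM in treated cells.

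In Müller glia, the main glial cells of the retina, Angptl4 was close to the limit. The reads numbered 29 over 1506 WT cells, 7 over 1200 KO cells and 20 over 1026 treated cells, which is 0.951 CPM (0.468 to 1.72) in WT, under the limit in KO and 0.894 CPM (0.339 to 1.91) in treated. The KO to WT ratio was 0.226 (0.0334 to 0.929), the treated to KO ratio 4.16 (0.849 to 30.5) and the treated to WT ratio 0.940 (0.292 to 2.76). None of the 6 genes had the 30 molecule equivalents needed for a call in Müller cells, where 4.03% of genes were higher in KO than in WT, 2.4% lower in treated than in KO and 1.05% called between treated and WT. Of the 14 other HIF targets with enough reads, 6 were higher in KO than in WT and 0 lower, among them Adm, a vasodilator peptide, from 2.23 to 143 CPM and Egln3, a HIF prolyl hydroxylase, from 1.44 to 11.1 CPM. The level of Angptl4 in KO Müller cells was the lowest of the 3 libraries, but its 7 reads were under the limit. Haemoglobin genes in Müller cells summed to 383 CPM in WT, 0.767 CPM in KO and 771 CPM in treated. The part of RNA from other cells in the Angptl4 values of Müller cells was not tested.

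Tek and Tie1, the receptor genes, were both nearly confined to endothelial cells in WT and treated. In KO they differed: all Tie1 reads of kept cells were endothelial, against 16.3% of the Tek reads. Amacrine cells held 37.2% and bipolar cells 34.9% of the KO Tek reads. Their log2(CPM + 1) values correlated with Pearson r of 0.990 over 27 sums of a class in a library, a description over sums that share libraries and depth. The only high sums were those of WT and treated endothelial cells, so the r mainly reflects that both genes are endothelial. The RefSeq promoter windows of the pair, 250 bases before to 50 after the start (GRCm38.p6), are shown. Tek is on the plus strand (chr4:94739039-94739338) and Tie1 on the minus strand of the same chromosome (chr4:118489800-118490099). The promoters of 2 of the 6 genes were matched, without Angpt1, Angpt2, Angptl4 and Ptprb. Capitals mark AGGAAG or its reverse complement CTTCCT, an ETS factor core. The other motifs were searched on both strands too: ACGTG and GCGTG (cores of hypoxia response elements), GTAAACA (a forkhead core) and CACCTG (an E-box).
Tek: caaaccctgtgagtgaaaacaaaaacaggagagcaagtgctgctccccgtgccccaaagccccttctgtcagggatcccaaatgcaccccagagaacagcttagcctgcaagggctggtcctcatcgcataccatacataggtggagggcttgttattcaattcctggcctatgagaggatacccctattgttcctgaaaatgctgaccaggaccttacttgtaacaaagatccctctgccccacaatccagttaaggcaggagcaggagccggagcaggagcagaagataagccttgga
Tie1: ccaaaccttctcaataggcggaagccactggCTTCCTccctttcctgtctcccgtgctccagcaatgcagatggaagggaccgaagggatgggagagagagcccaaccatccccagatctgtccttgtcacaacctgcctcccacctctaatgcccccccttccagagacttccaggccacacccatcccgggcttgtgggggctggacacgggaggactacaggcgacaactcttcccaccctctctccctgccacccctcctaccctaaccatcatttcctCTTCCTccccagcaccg
AGGAAG was found at 2 places in the Tie1 window, both times as CTTCCT, at positions 32 and 284 of the window counted from its first base, and at none in the Tek window. No other motif was found in either window. Of all 32851 promoter windows, 35.4% hold AGGAAG, 19.6% ACGTG, 32.4% GCGTG, 3.65% GTAAACA and 20.2% CACCTG on either strand, so these matches are a description only.

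In endothelial cells Tek had 2469 WT reads, or 316 CPM (296 to 337), and 615 treated reads, or 283 CPM (245 to 326). The ratio was 0.896 (0.764 to 1.05), and the median cell had 305 and 306 CPM. A read was present in 94.9% of WT and 94.9% of treated cells. Within the first endothelial cluster the levels were 294 and 259 CPM, a ratio of 0.881 (0.703 to 1.10). After thinning to 5000 reads 67.8% (58.6 to 76.1%) of WT and 81.1% (64.8 to 92.0%) of treated cells had a Tek read, and the ratio was then 1.19. The Tek interval includes 1, so a difference between treated and WT was not detectable at this depth.

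Tie1 had 1694 WT reads, or 217 CPM (200.05 to 235), and 380 treated reads, or 175 CPM (145 to 209), in these cells. The ratio was 0.807 (0.658 to 0.983), with the interval just below 1 and the ratio far from the 2-fold needed for a call. Median cells had 210 CPM in WT and 149 CPM in treated. In the first cluster the ratio was 0.812 (0.608 to 1.08). Both receptors were read in the same cell in 107 of 118 WT and 35 of 39 treated endothelial cells, all of which also had Ptprb, and 1 WT and 2 treated cells had neither. Outside the endothelial class Tek was at or under 0.789 CPM in Müller, bipolar and amacrine cells, and Tie1 had no read in Müller cells, amacrine cells, astrocytes or microglia of any library.

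Ptprb, the gene of the phosphatase that acts on TIE2, was slightly higher in treated endothelial cells. There were 11879 WT reads, or 1520.1 CPM (1475 to 1566), and 4040 treated reads, or 1860.3 CPM (1759.6 to 1965), a ratio of 1.22 (1.15 to 1.30). The intervals do not overlap, and the ratio did not reach 2. The median cell had 1434 CPM in WT and 1812 CPM in treated. The ratio was 1.44 (1.31 to 1.59) in the first cluster, 1.47 (1.27 to 1.69) in the second and 1.15 (0.918 to 1.43) in the third. Every WT endothelial cell and 97.4% of treated ones had a read, and thinned to 5000 reads 97.5% of WT and all 37 treated cells deep enough kept one. In bipolar cells Ptprb was at 1.85, 1.33 and 1.94 CPM, and in Müller cells at 1.28, 0.430 and 0.715 CPM, in WT, KO and treated. The part of RNA from endothelial cells in these low values was not tested.

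**Figure D3:**
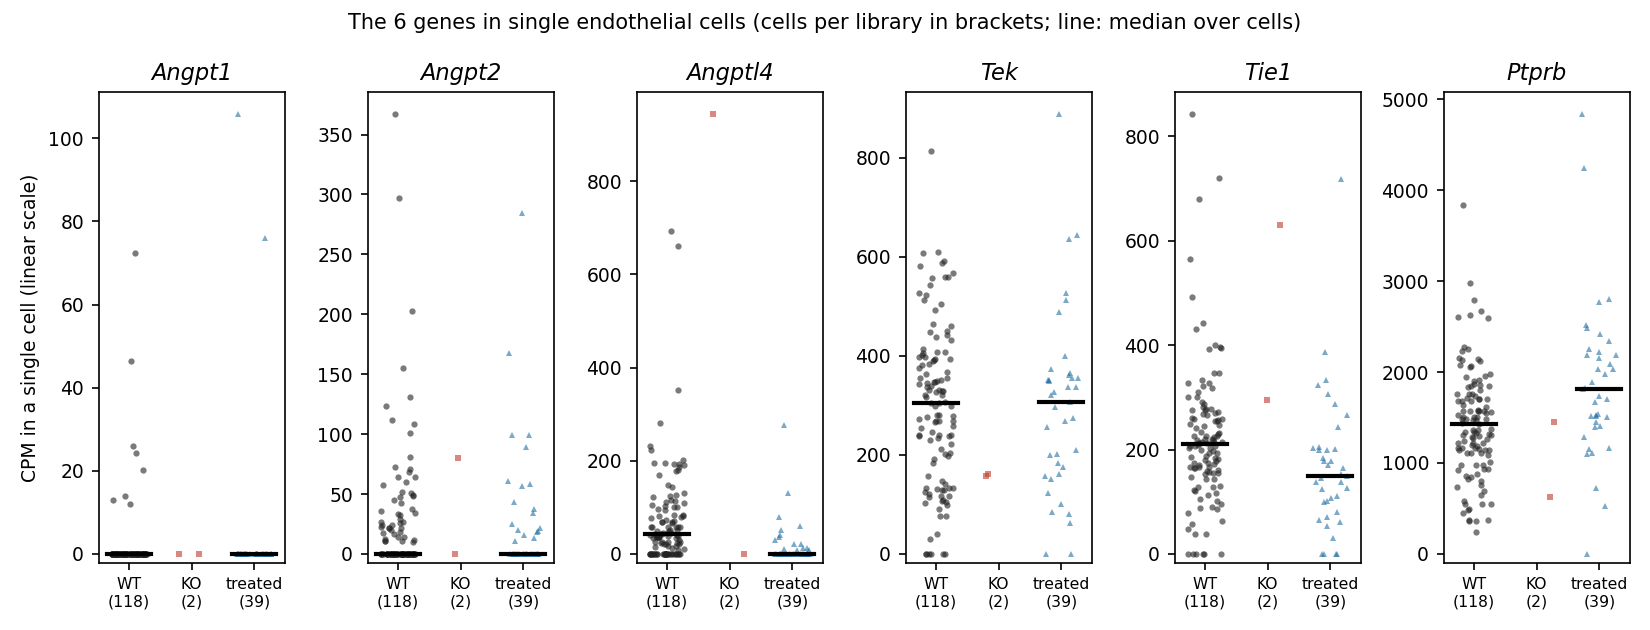
CPM of each gene (panels) in single endothelial cells of each library, on linear y axes with separate scales, with the number of cells in brackets and a line at the median over cells where there are at least 15. Treated cells lie lower than WT cells in Angptl4, with medians of 0 and 42.9 CPM, while the clouds of Tek overlap, with medians of 306 and 305 CPM.

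**Figure D4:**
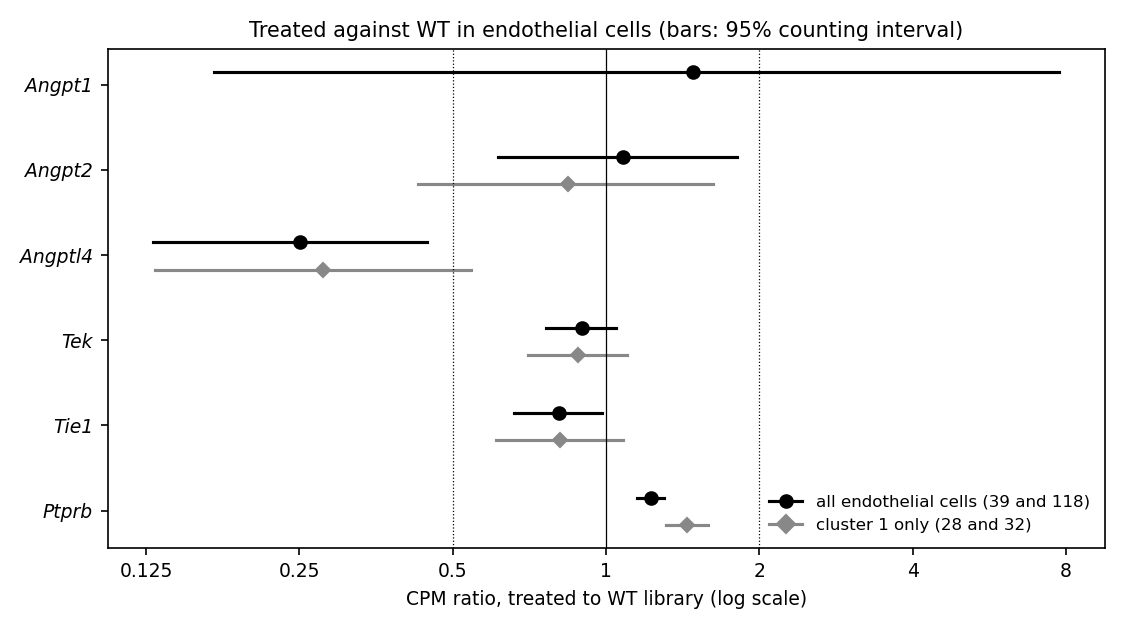
CPM ratio of the treated to the WT library on a log x axis for each gene, in all endothelial cells and in the first endothelial cluster, with 95% counting intervals as bars, a solid line at 1 and dotted lines at ratios of 0.5 and 2. Angptl4 lies beyond a dotted line at 0.251 in all cells and 0.278 in the first cluster, and the other points drawn lie between the dotted lines; Angpt1, with 3 WT and 7 treated reads in the first cluster, has no point there.

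The KO library gave 2 endothelial cells, and they held all 15 Tie1 reads of that library. The deeper one, with 37325 reads, had 6 reads of Tek, 11 of Tie1, 54 of Ptprb and 3 of Angpt2, together with reads of all 12 endothelial and 11 mural markers. The other, with 6352 reads, had 1 read of Tek, 4 of Tie1, 4 of Ptprb and 6 of Angptl4, and no mural marker read. A further KO barcode in the mural class, with 3737 reads, had 8 reads of Ptprb, 54 reads over 8 endothelial markers and 0 of mural markers. Of the 46 Tek reads in KO the others lay in single bipolar, amacrine and other cells, with at most 5 in any of them. The values of the 2 cells together, 160 CPM of Tek (7 reads, under the limit) and 1328 CPM of Ptprb, carry intervals of 27.1 to 509 CPM and 822 to 2029.5 CPM, and no comparison was made with them.

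The other genes of the pathway were counted from fixed lists in treated against WT endothelial cells. Of the Tie pathway partners and signalling genes, such as integrin, PI3K, AKT and FOXO genes, 22 of 26 in the table had enough reads and 0 were called in either direction. Their median log2 ratio was -0.01, beside -0.06 for all genes tested. Of the FOXO1-linked and flow-linked endothelial genes 2 of 17 were called, both higher in treated, where 0.79% of all genes tested were called higher, with a median of 0.12. They were Apln, the gene of an endothelial tip-cell peptide, at 13.3 CPM in WT and 38.2 CPM in treated (ratio 2.87, 1.68 to 4.85), and Igfbp3, a binding protein of insulin-like growth factors, at 139 and 291 CPM (2.09, 1.76 to 2.49). Of the treated Apln reads, 89.2% lay in 5 cells.

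The share of all genes called in either direction, 1.6%, stands beside the next counts too. Of the lipase partners of Angptl4, 5 had enough reads in endothelial cells. Gpihbp1, which holds lipoprotein lipase on the capillary wall, was called higher in treated, at 12.8 CPM in WT and 42.8 CPM in treated (ratio 3.35, 1.99 to 5.59), with 78.5% of the treated reads in 5 cells. Of 8 PPAR targets with enough reads 6 had ratios below 1, with a median log2 ratio of -0.49. None of 6 glucocorticoid targets was called, and all 6 had ratios above 1, with a median of 0.49. Of 12 HIF targets 1 was called, Apln, and the median was -0.05. Of the 4 related R3 receptor phosphatase genes 2 were in the tables analysed here, neither with enough reads.

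Of the other angiopoietin-like genes, Angpt4, which encodes a further TIE2 ligand, had 512 of 515 WT, 104 of 108 KO and 182 of 189 treated reads in astrocytes. Astrocytes stood at 221 CPM (191 to 255) in WT, at 71.2 CPM (50.3 to 97.8) in KO and at 120 CPM (91.1 to 155) in treated. The KO to WT ratio was 0.322 (0.221 to 0.459), which met the rule, where 3.4% of genes were called. The treated to KO ratio was 1.69 (1.10 to 2.62) and the treated to WT ratio 0.543 (0.397 to 0.734), and neither was called, in comparisons with 2.06% and 1.14% of genes called. The reads lay in few cells, 27 of 49, 8 of 26 and 14 of 22, and the 5 highest held 63.7%, 91.3% and 62.1% of them. Summed astrocyte markers, 10 of 11 with reads, were at 15393, 22282 and 19425 CPM. Angptl2 was at 0.984 CPM in WT, 7.89 CPM in KO and 1.57 CPM in treated Müller cells, called both as higher in KO than in WT (8.01, 4.28 to 16.6) and as lower in treated than in KO (0.198, 0.0960 to 0.371).

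The genes most like each member over the 27 class and library sums, among 15693 genes, are named as a description. For Tek they were Cyyr1, Kcnq1 and Foxq1 (r of 0.994, 0.993 and 0.993) and for Tie1 Rassf9, Fam124b and Zfp366 (0.998 each), all highest in endothelial cells. For Ptprb they were Sox18, Foxf2 and Tmem252 (0.974, 0.972 and 0.970). Angptl4 was most like Slc38a5, Snai2 and Akr1c14 (0.931, 0.929 and 0.929), Angpt2 most like Myzap, Rasd1 and Sema6d (0.921, 0.901 and 0.895), and Angpt1 most like Col8a1, Eln and Btbd3 (0.880, 0.812 and 0.808), which were highest in mural cells. The only mural sum used was that of the 15 KO cells, where the Angpt1 reads were under the limit.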

How the data were processed

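Single-cell 3′ libraries (10x Chromium v3 kit, per the labels) were deposited as 3 tables of gene by barcode. The values are estimated counts per the deposited tables themselves: most are whole and 2.33 to 2.39% lie more than 0.001 from a whole number. Partek 9.0 and mm10 are named, per the submitters' processing notes, without a step; the aligner, the use of strand and the collapsing of reads to molecules are not given in the sources used here. Values were rounded. Reads per molecule equivalent were the sum of squared values over the sum of values in genes seen in 5 to 50 barcodes, for values up to 10.

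Barcodes with under 500 genes or over 20% mitochondrial reads, and the barcodes nearest to simulated doublets (a share of barcodes that grows with their number, which removed 296 WT, 882 KO and 702 treated barcodes), were left out. Cells of all libraries were clustered together (2000 variable genes without the 6 members, 40 components, 15 neighbours, Leiden resolution 1.0, sub-clusters at 0.5, no batch correction). A class name needed 3 or more of its markers at 2-fold or more, as CPM + 1, over the cells outside its parent cluster and detected in 20% or more of the cluster, and top 10 genes that do not go against it. Details of naming were fixed once clusters had been looked at: haemoglobin, mitochondrial, Gm and Rik genes do not count among the top 10, and a cluster with 50% or more of the marker level of another, unlike class stayed unnamed. The unnamed cells numbered 347 WT, 276 KO and 339 treated and were not analysed further.

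Reads were summed per class and library. Intervals are exact Poisson for CPM, exact conditional binomial for ratios and Clopper-Pearson for shares, at 95%. Ratios were made in classes of at least 15 cells in both libraries. No p-value was computed. The call rule was tested on simulated class sums with counting error only. They held no variation between cells, libraries or mice, so the test does not cover that variation. The members, the gene lists and the motifs were chosen with earlier results of these data known; AGGAAG and the Mcph1, Tspan12 and bipolar cluster values were added after the data were seen. List genes are named where they met the call rule, at most 6 in each direction per list and comparison, for the classes described; some results are not reported here. Positions are from GENCODE vM21. Scripts used Python, NumPy and SciPy.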

Additional observations from a re-analysis of the deposited data

How the results depend on the processing

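No paired analysis was possible because each group has 1 library. Of 11 alternatives for each endothelial treated to WT ratio (rounding, doublets, cell filters, resolution, scaling, averaging, leaving out cells, thinning, and leaving out the haemoglobin-rich cluster), Angptl4 stayed between 0.128 and 0.456, Tie1 between 0.674 and 0.821, Angpt2 between 0.774 and 1.16 and Ptprb between 1.21 and 1.31. Outside the counting interval of the reported value were Tek at 1.19, on the other side of 1, and Angptl4 at 0.456 in cells thinned to 5000 reads, Angptl4 at 0.128 without the 5 cells with the most reads, and Ptprb at 1.31 as a mean over single cells; the cause was not tested. Leaving out the haemoglobin-rich endothelial cluster, chosen after the data were seen, moved no ratio outside its interval. That cluster was rich in haemoglobin in WT only (7.47%, against 0.000643% in treated). The first cluster, with 3.09% in treated, was kept, so the check does not cover haemoglobin in treated cells. The Müller Angptl4 ratio of KO to WT was 0 without the 5 cells with the most reads and 0 in thinned cells, where no KO read was left. In bipolar cells Angpt1 stayed between 0.147 and 0.312 for KO to WT and between 3.07 and 6.46 for treated to KO over 13 alternatives. The 4 clusters alone (0.267 and 4.02) and the 4 clusters without 1 sub-cluster (0.275 and 3.78) were added after the data were seen. The amacrine ratio of Angpt1, KO to WT, turned to 1.32 without the 5 cells with the most reads, and Angpt2 in astrocytes, treated to WT, was 0.495 in thinned cells. With a ratio of at least 3 the genes called numbered 70 instead of 148 in endothelial cells and 380, 204 and 52 instead of 902, 526 and 137 in Müller cells (KO to WT, treated to KO, treated to WT). Classes by markers alone left 10 treated endothelial cells and no astrocytes. Leaving out the endothelial cluster with the highest mural marker level left under 15 treated endothelial cells. Neither of these alternatives gave a ratio. No unnamed cluster had endothelial markers, so adding one was not run. Few reads were behind Angptl4 in Müller cells (29 WT, 7 KO and 20 treated), which limits the precision of its ratios.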

Other observations

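In astrocytes 7 genes of the HIF target list had enough reads, with 1 higher and 2 lower in KO than in WT, where 1.79% of all genes tested were higher and 1.6% lower. The median log2 ratio was -0.93, beside -0.05 for all genes tested. Vegfa, the growth factor gene, stood at 532 CPM in WT, 166 CPM in KO and 482 CPM in treated astrocytes, while in Müller cells it stood at 138, 427 and 208 CPM. Ndufa4l2, a mitochondrial HIF target, was highest in KO in both classes, at 9.50, 102 and 17.2 CPM in astrocytes and 100.1, 1617 and 176 CPM in Müller cells. In KO astrocytes 89.3% of its reads lay in 5 cells. The level of Igfbp3 was 83.8 CPM in WT astrocytes and 70.6 CPM in treated ones, and its 6 KO reads were under the limit. The astrocyte values come from 49, 26 and 22 cells, and the difference between the classes was not tested.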
